A study of Mus musculus with 5 samples.

Results

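The dual-specificity MAP kinase phosphatases are enzymes that switch MAP kinases off, and their transcripts were followed here in pancreatic beta cells that express the cell cycle inhibitor p16INK4a. All 10 listed genes, Dusp1, Dusp2, Dusp4, Dusp5, Dusp6, Dusp7, Dusp8, Dusp9, Dusp10 and Dusp16, were found by symbol among the 23951 genes of the deposited table. RNA-seq had been run on 3 samples of the p16 group and 2 of the GFP group. The p16 group came from mice with the genotype Ins-rtTA/tet-GFP/tet-p16ink4a, and the GFP group from Ins-rtTA/tet-GFP controls. In both groups an insulin promoter, active in beta cells, drives the tetracycline-responsive activator rtTA. Both groups were induced through this tet system for 10 days (the inducing drug and its dose were not given in the sources used here), so both carried the activator and the induced green fluorescent protein, and p16INK4a was the added transgene. Cells were taken from dissociated islets and sorted for the fluorescent protein. The study's design counts 3 p16 mice and 2 GFP mice, as many as samples, but no label ties a sample to a mouse, so the spread behind the tests may be partly technical. Age, strain and sex were not given in the sources used here.

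MAP kinases are activated when a dual-specificity kinase phosphorylates a threonine and a tyrosine in their activation loop, and these phosphatases remove both phosphates. ERK responds mainly to growth factors and, in beta cells, to glucose and calcium entry, while JNK and p38 respond mainly to stress and cytokines. Several of the phosphatase genes are themselves induced by the kinases they oppose, which makes them feedback regulators. Dusp1, Dusp2, Dusp4 and Dusp5 encode nuclear, inducible enzymes. Dusp6, Dusp7 and Dusp9 encode cytoplasmic enzymes that prefer ERK, and Dusp8, Dusp10 and Dusp16 encode enzymes that prefer JNK and p38.

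Each gene has 1 FPKM value of the authors for each group. FPKM scales fragments by transcript length and by library size, so genes and groups can be set side by side, but only roughly. The log2 ratios between groups still followed GC content, as given below. Values per sample were not analysed here, so no SD can be given, depth is unknown, and whether groups overlap cannot be seen. A gene is called here when its q-value in the authors' deposited table was below 0.05, over 13264 tested genes. Cdkn2a, which encodes p16INK4a, stood at 34.6 FPKM with p16 and 0.657 FPKM with GFP (q = 0.00245 in the authors' deposited table).

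The family did not move as one. Dusp1 fell 3.97-fold with p16, Dusp16 rose 2.94-fold and Dusp7 rose 2.09-fold, while Dusp4, Dusp5, Dusp6, Dusp8 and Dusp10 were tested and not called. Dusp2 and Dusp9 were near 0 and were not tested by the authors. The authors' deposited table thus called 2 members higher and 1 lower of the 8 tested. Over all tested genes 5.42% were called, 4.32% higher and 1.10% lower, against 25% higher and 12.5% lower among the 8 members, where 1 gene makes 12.5% of them. The median log2 ratio of p16 over GFP was 0.21 for the 8 members and -0.02 for all tested genes, with 5 members above 0 and 3 below.

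**Figure D1:**
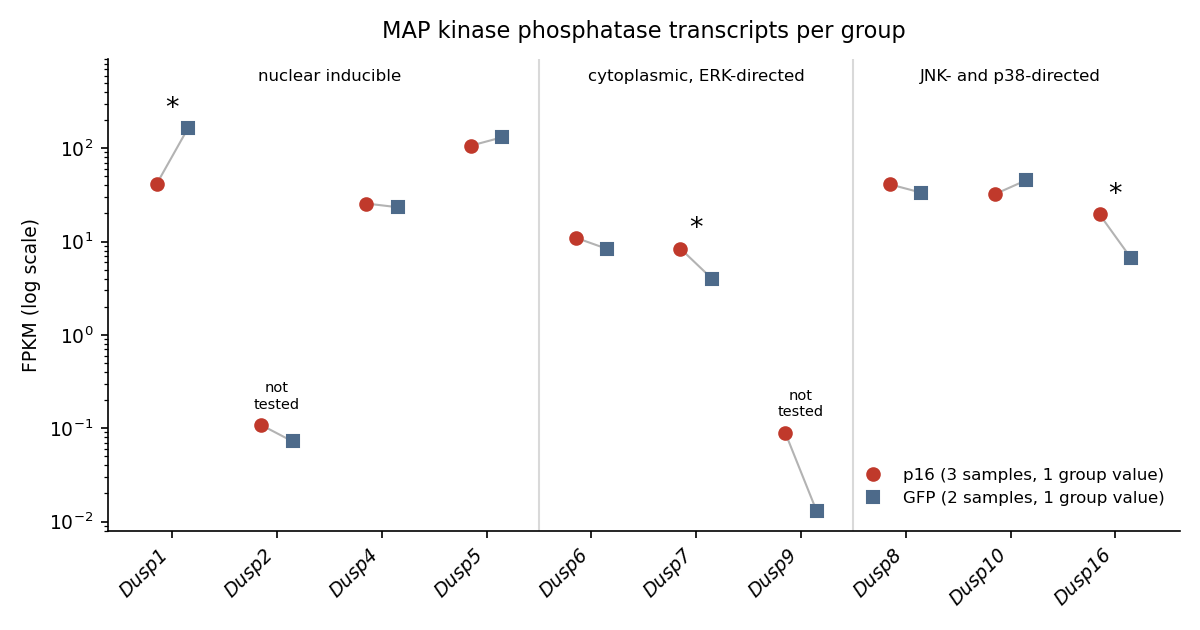
FPKM of each of the 10 genes on a log axis, as 1 group value for p16 (circles, left) and 1 for GFP (squares, right), arranged by location and preferred kinase. Asterisks mark the 3 genes called in the authors' deposited table: Dusp1 was lower with p16, at 41.1 FPKM against 163.3 FPKM with GFP, and Dusp7 and Dusp16 were higher.

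The levels spanned a wide range, and their order differed between the groups. In the p16 group Dusp5 was highest at 106.4 FPKM, followed by Dusp1 at 41.1, Dusp8 at 40.9, Dusp10 at 32.1, Dusp4 at 25.5, Dusp16 at 19.5, Dusp6 at 11.0 and Dusp7 at 8.39 FPKM. In the GFP group Dusp1 was highest at 163.3 FPKM, followed by Dusp5 at 130.9, Dusp10 at 45.4, Dusp8 at 33.3, Dusp4 at 23.3, Dusp6 at 8.33, Dusp16 at 6.63 and Dusp7 at 4.01 FPKM. Dusp2 and Dusp9 came last in both groups. Without values per sample it cannot be said which neighbours in these orders differ, and Dusp1 and Dusp8 of the p16 group lie close together.

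The promoters of the called members, and of the members richest in motif matches, show what sequence lies at their start sites. Windows from 250 bases before to 50 bases after the start were in the RefSeq table of the GRCm38.p6 build for 8 of the 10 genes; the others are Dusp4 and Dusp9. Capitals mark matches on either strand to the core of the cAMP response element (TGACG), which CREB family factors bind, to its full palindrome (TGACGTCA), or to the serum response CArG box, which SRF binds. Each full palindrome holds 2 overlapping cores. The coordinates given with these windows are of GRCm38.p6 and are not comparable with the mm9 loci given for the genes. The sequences read 5′ to 3′ along the gene.
Dusp1 (chr17:26508423-26508722, minus strand): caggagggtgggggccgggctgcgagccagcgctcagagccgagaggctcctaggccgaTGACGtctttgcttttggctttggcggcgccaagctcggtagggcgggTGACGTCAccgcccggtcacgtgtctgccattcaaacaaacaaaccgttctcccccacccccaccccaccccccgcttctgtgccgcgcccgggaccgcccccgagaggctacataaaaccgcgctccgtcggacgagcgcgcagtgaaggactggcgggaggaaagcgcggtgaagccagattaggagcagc
Dusp16 (chr6:134792579-134792878, minus strand): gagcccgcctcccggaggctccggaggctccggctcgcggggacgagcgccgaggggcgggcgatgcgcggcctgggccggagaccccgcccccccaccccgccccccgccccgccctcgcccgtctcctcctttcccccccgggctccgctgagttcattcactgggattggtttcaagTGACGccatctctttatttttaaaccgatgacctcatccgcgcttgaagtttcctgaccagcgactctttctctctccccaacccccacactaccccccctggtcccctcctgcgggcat
Dusp7 (chr9:106368382-106368681, plus strand): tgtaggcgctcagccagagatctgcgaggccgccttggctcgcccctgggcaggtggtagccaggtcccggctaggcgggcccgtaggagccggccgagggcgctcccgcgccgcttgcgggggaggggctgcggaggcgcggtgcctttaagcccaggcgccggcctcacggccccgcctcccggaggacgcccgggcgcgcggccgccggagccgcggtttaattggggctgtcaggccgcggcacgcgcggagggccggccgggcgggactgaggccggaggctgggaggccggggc
Dusp8 (chr7:142095235-142095534, minus strand): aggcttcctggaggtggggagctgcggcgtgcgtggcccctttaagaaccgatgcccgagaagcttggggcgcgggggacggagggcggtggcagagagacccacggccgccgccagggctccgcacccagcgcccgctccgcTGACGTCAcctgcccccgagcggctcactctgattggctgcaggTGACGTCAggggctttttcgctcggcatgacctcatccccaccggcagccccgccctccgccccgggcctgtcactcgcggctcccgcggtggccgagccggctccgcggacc
Dusp5 (chr19:53528895-53529194, plus strand): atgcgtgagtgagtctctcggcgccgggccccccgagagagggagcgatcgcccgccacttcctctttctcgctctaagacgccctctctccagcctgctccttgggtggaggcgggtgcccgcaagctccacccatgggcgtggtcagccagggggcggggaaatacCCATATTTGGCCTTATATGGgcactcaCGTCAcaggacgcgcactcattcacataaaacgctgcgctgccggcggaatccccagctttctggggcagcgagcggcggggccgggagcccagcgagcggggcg

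The Dusp1 window held 1 full cAMP response element, from 143 to 136 bases before the start, and a further core 191 to 187 bases before it. The Dusp8 window held 2 full elements, the Dusp16 window 1 core, and the Dusp7 window none of these motifs. Dusp5 held 2 adjacent CArG boxes between 82 and 63 bases before its start, beside 1 core, and Dusp2 held 1 core after its start. Dusp6 and Dusp10 held none. A full element was present in 2 of the 8 members' windows and in 1.79% of 32851 windows, a core in 5 of 8 and 20.8%, and a CArG box in 1 of 8 and 1.63%. The AP-1 site (TGANTCA), the EGR1 site (GCGTGGGCG) and the TATA box (TATAAA) were found in 0 of the 8, and in 7.81%, 0.612% and 13.6% of all windows. Differences between these shares were not tested. The members' windows had 57.3% to 78.7% GC, and the windows compared with them were not matched for GC content. The members with a full element were Dusp1, which was called lower, and Dusp8, which was not called.

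**Figure D2:**
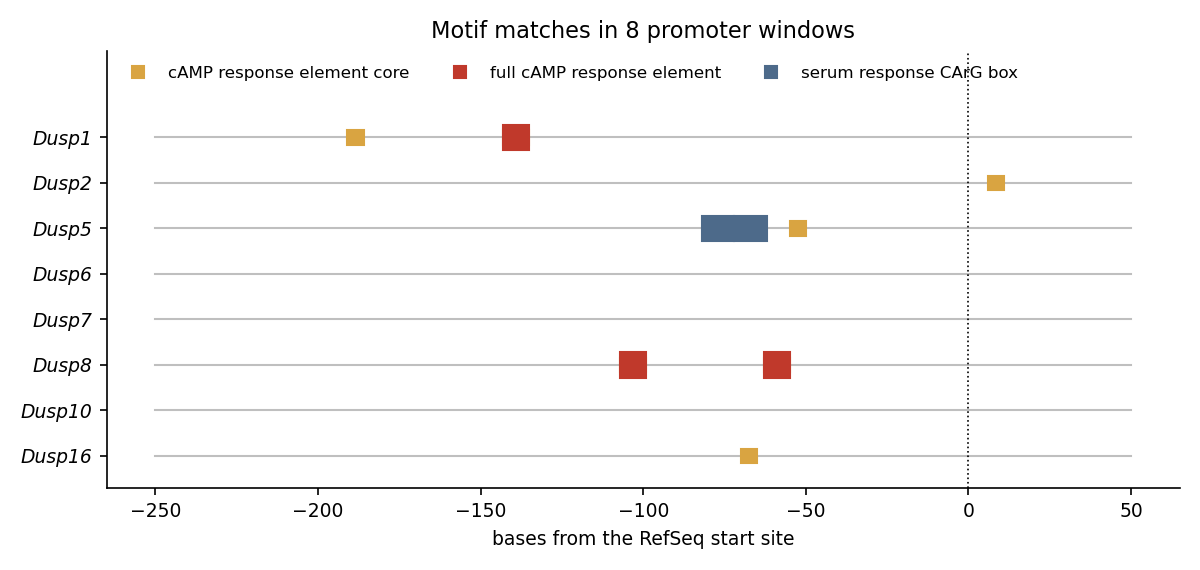
Matches to 3 motifs along the promoter windows of 8 members, drawn to scale in bases from the RefSeq start site (dotted line); yellow marks cAMP response element cores, red full elements, which cover the cores within them, and blue CArG boxes. Dusp1 carries 1 full element and Dusp8 carries 2, and Dusp5 has 2 adjacent CArG boxes drawn as 1 block.

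Among the nuclear enzymes, Dusp1 carried the only call. Its product acts on p38, JNK and ERK in the nucleus, and the gene is an immediate early gene that cells switch on within minutes of a stimulus. Islets were dissociated and cells sorted before sequencing, and the part of that handling in the values of Dusp1 was not tested. Dusp1 stood at 41.1 FPKM with p16 and 163.3 FPKM with GFP, a log2 ratio of -1.99 (q = 0.00245 in the authors' deposited table, its smallest value, shared by 271 genes). The gene spans 26642536 to 26645417 on chromosome 17 in mm9. Of 738 other tested genes with a mean FPKM at or above that of Dusp1, 4 had a lower log2 ratio, namely Fos, Gem, Btg2 and Rasd1, which were named after their values were seen. Within 2-fold of the mean FPKM of Dusp1, 2.06% of 1262 tested genes were called lower and 2.06% higher.

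The other nuclear enzymes were not called. Dusp5, whose product is specific for ERK, stood at 106.4 FPKM with p16 and 130.9 FPKM with GFP, a log2 ratio of -0.30 (q = 0.652 in the authors' deposited table). Dusp4, which encodes an enzyme for ERK and JNK, stood at 25.5 FPKM with p16 and 23.3 FPKM with GFP (q = 0.880 in the authors' deposited table). Dusp2, an enzyme best known from activated immune cells, was listed at 0.108 FPKM with p16 and 0.0721 FPKM with GFP and was not tested. Dusp1 was at 38.7% of the level of Dusp5 with p16 and at 125% with GFP, a difference in order that carries no test.

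In the cytoplasmic, ERK-directed subgroup Dusp7 was the member called. Dusp7 stood at 8.39 FPKM with p16 and 4.01 FPKM with GFP, a log2 ratio of 1.07 (q = 0.0163 in the authors' deposited table). With a pseudocount of 5 the log2 ratio was 0.57, and at a threshold of 0.01 Dusp7 is not called. It spans 106270963 to 106278054 on chromosome 9 in mm9. Dusp6, a feedback enzyme induced by ERK, stood at 11.0 FPKM with p16 and 8.33 FPKM with GFP, a log2 ratio of 0.40 (q = 0.524 in the authors' deposited table). The level of Dusp7 was 76.3% of that of Dusp6 with p16 and 48.1% with GFP. Dusp9 was listed at 0.0894 FPKM with p16 and 0.0129 FPKM with GFP and was not tested, and at such levels its ratio is not read here.

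In the JNK- and p38-directed subgroup Dusp16 rose and its relatives were not called. Dusp16 encodes an enzyme that moves between nucleus and cytoplasm and prefers JNK, and it stood at 19.5 FPKM with p16 and 6.63 FPKM with GFP. Its log2 ratio was 1.55 (q = 0.00245 in the authors' deposited table), and of 5433 other tested genes at least as abundant 42 had a higher one. The gene spans 134665486 to 134742646 on chromosome 6 in mm9. Dusp10, which encodes an enzyme for p38 and JNK, stood at 32.1 FPKM with p16 and 45.4 FPKM with GFP, a log2 ratio of -0.50 (q = 0.353 in the authors' deposited table). Dusp8 stood at 40.9 FPKM with p16 and 33.3 FPKM with GFP, a log2 ratio of 0.30 (q = 0.636 in the authors' deposited table). Dusp16 was at 60.6% of the level of Dusp10 with p16 and at 14.6% with GFP.

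The 5 members without a call had ratios smaller than any that was called among genes of like abundance. Among 3025 tested genes within 2-fold of the mean FPKM of Dusp10, the smallest called fall was a log2 ratio of -0.85 and the smallest called rise 0.84. Around Dusp5, with 1094 such genes, these limits were -0.82 and 0.83, and around Dusp4, Dusp6 and Dusp8 they lay between -0.85 and -0.81 for falls and at 0.84 for rises. The 5 members had log2 ratios between -0.50 and 0.40, inside those limits. No detection limit was computed, and a missing call does not show that a gene was at the same level in both groups.

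**Figure D3:**
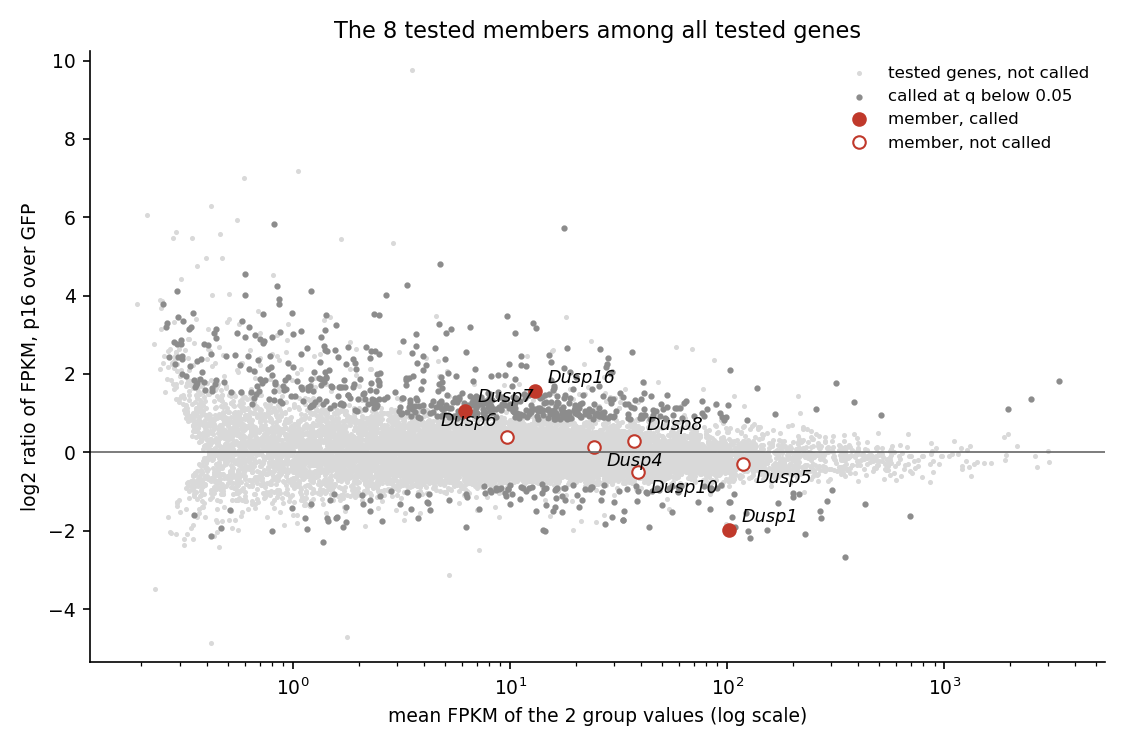
Log2 ratio of FPKM, p16 over GFP, against the mean of both group values on a log axis, for the tested genes listed above 0 in both groups (grey, darker where called) and the 8 tested members (red, filled where called). Dusp1 lies at the lower edge among abundant genes at -1.99, Dusp16 and Dusp7 lie at 1.55 and 1.07, and the 5 others lie between -0.50 and 0.40.

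Calls across the table followed GC content, and the members differ in it. With the tested genes that have a GENCODE transcript parted into 5 bins of 2522 by GC content, 8.33% were called higher and 0.555% lower in the richest bin, and 1.67% higher and 2.89% lower in the poorest. The Dusp1 transcript has 54.0% GC and falls in a bin with 4.80% called higher and 0.595% called lower. The Dusp16 transcript has 47.8% GC, in a bin with 4.48% called higher, and Dusp7, at 57.6% GC, is in the richest. Over the 5 bins the median log2 ratio ran from -0.315 in the poorest to 0.304 in the richest. The part of GC content in the values of the members was not tested. In mm9 none of the 10 loci overlaps that of another gene in the table.

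The summed FPKM of the family was lower with p16, and nearly equal in both groups without Dusp1, the only member called lower. That near equality joins members with ratios in both directions. Dusp5 and Dusp10 stood lower with p16, and Dusp4, Dusp6, Dusp7, Dusp8 and Dusp16 higher, of which only Dusp7 and Dusp16 were called. The 10 genes summed to 285.1 FPKM with p16 and 415.2 FPKM with GFP, a ratio of 0.687, and without Dusp1 to 244.0 FPKM with p16 and 252.0 FPKM with GFP, a ratio of 0.968. Dusp1 made up 14.4% of the sum with p16 and 39.3% with GFP. The nuclear subgroup made up 60.7% with p16 and 76.5% with GFP, the JNK- and p38-directed subgroup 32.4% with p16 and 20.5% with GFP, and the cytoplasmic subgroup 6.83% with p16 and 2.97% with GFP. These sums carry no test. In such bulk samples fewer cells that express a gene and less RNA per cell cannot be told apart.

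**Figure D4:**
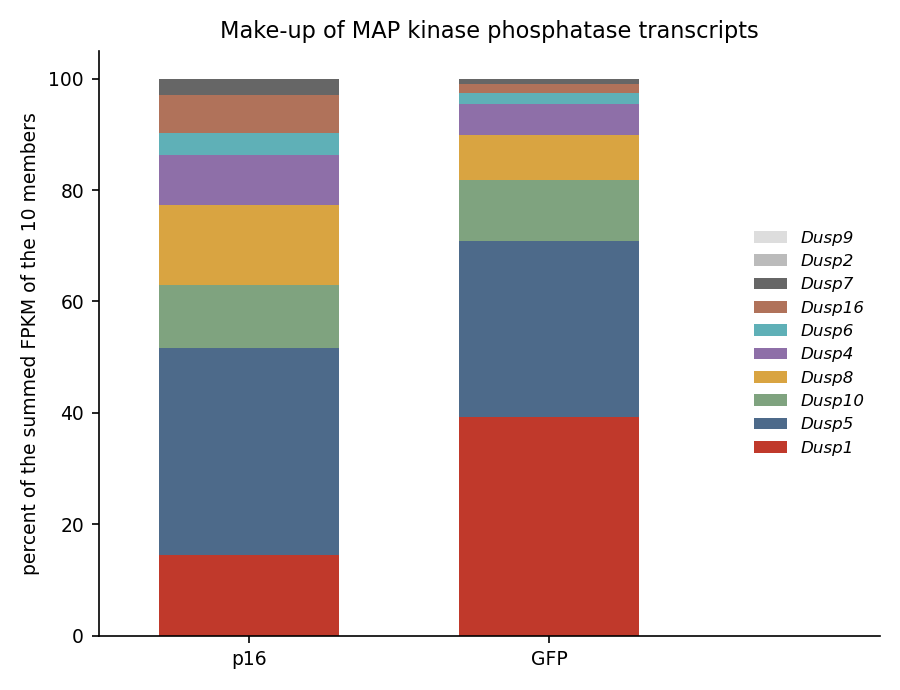
Share of each gene in the summed FPKM of the 10 members, in percent, for the p16 group (left) and the GFP group (right); Dusp2 and Dusp9 are too low to be seen. Dusp1 takes 14.4% of the sum with p16 and 39.3% with GFP, and Dusp16 takes 6.83% with p16 and 1.60% with GFP.

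The JNK and p38 kinases that these enzymes act on were not called. The 3 JNK genes summed to 36.3 FPKM with p16 and 43.8 FPKM with GFP, and the 4 p38 genes to 78.8 FPKM with p16 and 50.3 FPKM with GFP. Of these 7 genes 6 were tested and Cuffdiff called 0, with 2 at an unadjusted p-value below 0.05, in the authors' deposited table. The share called over all tested genes was 5.42%. Over the whole list of MAP kinases 1 of 13 tested genes was higher, the atypical kinase gene Mapk4, at 2.39 FPKM with p16 and 0.309 FPKM with GFP (q = 0.00245 in the authors' deposited table). Mapk3, an ERK gene, stood at 127.3 FPKM with p16 and 123.2 FPKM with GFP.

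Upstream kinases and scaffolds gave single calls per list, beside 4.32% called higher and 1.10% lower over all tested genes. Of 7 MAP kinase kinase genes 1 was higher in the authors' deposited table, Map2k3, an activator of p38, at 24.2 FPKM with p16 and 12.0 FPKM with GFP (q = 0.0174). Map2k1, an activator of ERK, stood at 39.7 FPKM with p16 and 38.3 FPKM with GFP. Of 17 RAF and MAP3 kinase genes 1 was lower in the authors' deposited table, Map3k8, which feeds into ERK, at 3.93 FPKM with p16 and 8.66 FPKM with GFP (q = 0.0284). Araf, a RAF kinase gene, stood at 113.3 FPKM with p16 and 104.7 FPKM with GFP. Of 9 scaffold genes 1 was higher in the authors' deposited table, the arrestin gene Arrb1, at 1.64 FPKM with p16 and 0.541 FPKM with GFP (q = 0.00245), and Iqgap1 stood at 69.7 FPKM with p16 and 53.1 FPKM with GFP.

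Calls among other brakes on the pathway are set beside those over all tested genes, 4.32% higher and 1.10% lower. Of 10 tested feedback inhibitors of RAS and ERK signalling 1 rose and 1 fell in the authors' deposited table, or 10% each way. Errfi1, an inhibitor of the EGF receptor, fell to 28.6 FPKM in the p16 group, against 82.6 FPKM in the GFP group (q = 0.00245 in the authors' deposited table). Spred2, which restrains activation of RAF, stood at 14.4 FPKM with p16 and 6.55 FPKM with GFP (q = 0.00752 in the authors' deposited table). Among 14 tested dual-specificity phosphatases outside the family 2 rose, or 14.3%, and 0 fell in the authors' deposited table. Their log2 ratios were above 0 for 4 genes and below 0 for 10, with a median of -0.11. Of the 14, 4 had an unadjusted Cuffdiff p-value below 0.05 in the authors' deposited table. Dusp14 reached 20.3 FPKM with p16, against 9.52 FPKM with GFP (q = 0.0118 in the authors' deposited table). Dusp26 reached 21.7 FPKM with p16, against 10.9 FPKM with GFP (q = 0.0130 in the authors' deposited table). Both encode small enzymes that lack the kinase-binding domain of the 10 members. Of 8 other phosphatases that act on MAP kinases Cuffdiff called 0, with 1 at an unadjusted p-value below 0.05, in the authors' deposited table, and Ppp2ca and Ppm1b stood at 168.4 and 86.7 FPKM with p16 and at 195.7 and 129.9 FPKM with GFP.

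Genes downstream of MAP kinases were followed in 3 lists, and differences between the lists were not tested. Of 20 immediate early genes 13 fell and 0 rose in the authors' deposited table, with a median log2 ratio of -1.26. Over all tested genes 1.10% were called lower and 4.32% higher, with a median log2 ratio of -0.02. The part of dissociation and sorting in the values of the immediate early genes was not tested. Fos and Egr1, transcription factor genes, stood at 94.3 and 61.3 FPKM with p16 and at 599.9 and 243.2 FPKM with GFP. Btg2, a gene that restrains proliferation, stood at 86.3 FPKM with p16 and 367.7 FPKM with GFP, and Egr2 at 1.18 FPKM with p16 and 3.96 FPKM with GFP. Of 7 tested later targets of ERK 4 rose and 0 fell in the authors' deposited table, with a median log2 ratio of 0.89. Ccnd1, the cyclin D1 gene, stood at 72.7 FPKM with p16 and 32.7 FPKM with GFP, and Etv5, an ETS factor gene, at 27.6 FPKM with p16 and 14.8 FPKM with GFP. Epha2 and Plaur, receptor genes, were at 1.32 and 2.59 FPKM with p16 and 0.240 and 0.230 FPKM with GFP. Egr2, Epha2, Plaur, Mapk4 and Arrb1 lie under a filter at a mean of 5 FPKM, which leaves 12 immediate early genes called lower and 2 later targets called higher. Of 20 kinases and factors that MAP kinases activate 1 was higher in the authors' deposited table, Mef2d, at 39.4 FPKM with p16 and 20.5 FPKM with GFP (q = 0.0223), and Jund stood at 446.4 FPKM with p16 and 322.1 FPKM with GFP.

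**Figure D5:**
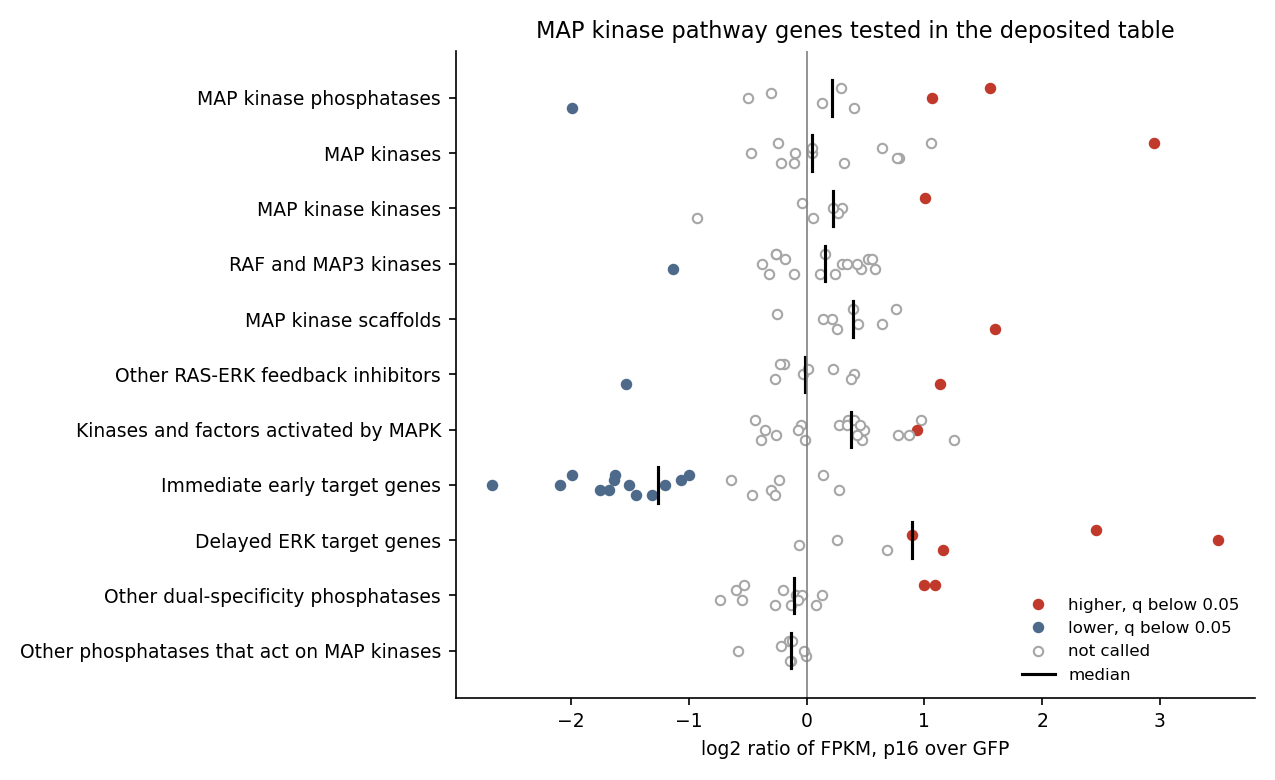
Log2 ratio of FPKM, p16 over GFP, for each tested gene of 11 lists of the MAP kinase pathway, coloured by its call at a q-value below 0.05 in the authors' deposited table; the bar is the list's median. The phosphatases spread from -1.99 to 1.55 with a median of 0.21, immediate early genes have a median of -1.26 and later ERK targets a median of 0.89.

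Markers of cell types were measured in the same sorted cells. Of 10 beta cell markers Ins1, Ins2 and Iapp carry a status for too many fragments and no estimate in either group. The other 7 summed to 3605 FPKM with p16 and 4742 FPKM with GFP, with 1 called lower. The called gene was Slc2a2, at 205.2 FPKM with p16 and 401.7 FPKM with GFP (q = 0.0242 in the authors' deposited table). G6pc2, not called, made up most of both sums, at 2327 FPKM with p16 and 3012 FPKM with GFP. Pdx1, Mafa and Nkx6-1 stood higher with p16, and Slc30a8 and Ucn3 lower, none of them called. Delta cell markers, 2 of 4 called higher, summed to 2782 FPKM with p16 and 1297 FPKM with GFP, and both PP cell markers, called higher, to 1217 FPKM with p16 and 569.5 FPKM with GFP. The 5 alpha cell markers, 1 of 4 tested called higher, summed to 2781 FPKM with p16 and 2159 FPKM with GFP. Gcg, not called, made up most of both alpha sums, at 2263 FPKM with p16 and 1642 FPKM with GFP. The 6 duct markers, of 5 tested 2 called higher and 1 lower, summed to 181.1 FPKM with p16 and 151.3 FPKM with GFP. Krt7, not called, made up most of both duct sums, at 151.5 FPKM with p16 and 134.0 FPKM with GFP. Spp1 and Sox9 were called higher and Krt19 lower. The 7 stromal markers, of which 2 were tested and both called higher, summed to 4.86 FPKM with p16 and 0.539 FPKM with GFP. Endothelial markers, of which the authors tested none, summed to 0.552 FPKM with p16 and 0.513 FPKM with GFP. Acinar markers, with q-values of 0.546 or more in the authors' deposited table, summed to 12.6 FPKM with p16 and 13.8 FPKM with GFP. The 7 of 8 immune markers found, 1 of 2 tested called higher, summed to 7.87 FPKM with p16 and 7.94 FPKM with GFP. Most of that sum was Cd79a, at 5.50 FPKM with p16 and 7.41 FPKM with GFP, and the called gene was Cd68, a macrophage marker, at 1.95 FPKM with p16 and 0.229 FPKM with GFP (q = 0.0498 in the authors' deposited table). The acinar marker Ptf1a and the immune marker Cd3e were listed at 0 in both groups. The part of other cell types in the values of Dusp1, Dusp7 and Dusp16 was not tested.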

How the data were processed

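RNA-seq of sorted beta cells in 3 p16 and 2 GFP samples was analysed from 1 deposited table. Per the submitters' processing notes the tools were TopHat2, Cuffnorm and Cuffdiff and the build mm9 (versions, annotation and scaling: not given in the sources used here). Per gene, the authors deposited 1 FPKM value per group, and a p-value and q-value for p16 against GFP. FPKM is not a count, so no count model was run, and group values allow no fit of their own; depth per sample is unknown. Of 23951 genes 13264 had been tested, 10679 were not tested, 6 had too many fragments and 2 failed. The deposited q-values are within 5.23e-07 of a Benjamini-Hochberg adjustment over tested genes, and the smallest p-value was 5e-05. The planned limma fit needs values per sample and was not possible, so the authors' q-values below 0.05 were used. Log2 ratios were computed from the FPKM values with no pseudocount.

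The members and lists were chosen with earlier results of these data known, so counts over them are descriptions. Named were the 10 members, up to 4 called genes of largest change per list, and abundant ones where a list had fewer than 2 calls. Loci were taken to have starts counted from 0, and 1 was added. Of 887 microRNA loci compared, the width of 272 equalled the hairpin length without adding 1, and that of 1 locus with it. The other loci matched neither way. GC content came from the longest GENCODE M21 transcript by symbol, for 95.1% of tested genes. Promoter windows are from RefSeq. The planned comparison of protein sequences was not run. The values of 1 MAP kinase gene are not reported here. The software was Python 3.11.15 with pandas 2.3.3, numpy 2.4.6, matplotlib 3.10.9 and scipy 1.17.1. The adjustment was tested on simulated data. The motif search was tested on simulated windows with planted full cAMP response elements only. That element reads alike on both strands, so neither the handling of strands nor the other motifs were covered.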

Additional observations from a re-analysis of the deposited data

How the results depend on the processing

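The 3 called members kept their direction under both pseudocounts, both scalings and quantile normalization. The log2 ratio of Dusp1 ranged from -1.99 to -1.85, that of Dusp16 from 1.07 to 1.57 and that of Dusp7 from 0.57 to 1.08, the lowest values of Dusp16 and Dusp7 with a pseudocount of 5. The untested Dusp2 turned to -0.0054 with quantile normalization of log2(FPKM + 1). The median of the 8 members stayed between 0.18 and 0.23, and the median of all tested genes moved by less than 0.1. At a q-value below 0.01 the phosphatases called higher were 1, with Dusp7 lost. Later ERK targets called higher were then 2 and immediate early genes called lower 9. The counts of MAP kinase kinases, activated factors and other dual-specificity phosphatases called higher and of MAP3 kinases called lower were 0. At a q-value below 0.1 the 3 calls among the members were unchanged, MAP kinases called higher were 2, activated factors 4, and 1 other dual-specificity phosphatase was lower. With p-values adjusted over genes of a mean FPKM of at least 5, the members kept their 3 calls, MAP kinases and scaffolds called higher were 0 and later ERK targets 2; over all genes 298 were then higher and 106 lower, against 311 and 58 at a q-value below 0.01 and 753 and 272 below 0.1. With Bonferroni adjustment every count was 0, as the smallest p-value the table holds then gives 0.663. No paired analysis was possible because the table holds 1 value per group, which also keeps any sample from being left out. Depth is unknown, so how far it limits the low genes cannot be given.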
